A study of Mus musculus with 9 samples.

Results

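The 33 genes described here encode proteins that the fetal liver makes, nearly all of them secreted into the blood plasma, together with Hnf4a, a transcription factor of hepatocytes. They were chosen by symbol, and every probe set of the array annotated to one of these symbols alone was taken. Of the 33 symbols, 32 were measured, by 52 probe sets, out of 18193 genes and 45101 probe sets in all. Trf, the transferrin gene, is not analysed here. Transcripts of mouse embryos were measured at embryonic day 16.5 on 9 arrays: 3 arrays of the condyle of the temporomandibular joint (the head of the lower jaw), 3 of its fossa (the socket that receives that head) and 3 of the whole body. All 9 samples carry the same treatment entry, laser capture of tissue frozen fresh, and no genotype, strain, sex or litter is given in the sources used here. Whether the captures of 1 replicate number came from 1 embryo is not given either, so the p-values reflect only how far these samples spread.

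Hepatocytes synthesise most proteins of the plasma: albumin and its fetal relative alpha-fetoprotein, the apolipoproteins that package lipid, the clotting factors and the protease inhibitors that restrain them. Their genes are transcribed in few places outside the liver, mainly the yolk sac endoderm, the lining of the gut and, for some, the kidney. The proteins reach every tissue with the blood, and fetuin-A in particular is stored in bone matrix, whereas an array reads only the messenger RNA in the captured tissue. In the fetus the liver also houses the making of red blood cells.

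Values are the deposited intensities, on a linear scale. Where a gene had several probe sets, the one brightest on average over the 9 arrays stands for it. Folds and bounds are those of that probe set, and other probe sets of the same gene can give smaller ones. A gene counted as above background on an array when it exceeded the highest of 27 control probe sets for Bacillus subtilis transcripts on that array. This limit was 7.37, 7.66 and 7.31 on the condyle arrays, 11.5, 7.42 and 8.0 on the fossa arrays and 8.5, 8.62 and 10.3 on the whole body arrays. A single control probe set raised it on fossa array 1 and on whole body array 3, where the second highest control stood at 8.22 and 8.21. Differences were tested with limma on log2 values over all genes, and "adjusted p" is its Benjamini-Hochberg value, with 0.05 as the threshold. Where fewer than 3 arrays of the dimmer group exceeded the limit, the fold is given as "at least", computed against the higher of the limit and the measured value. Fitted log2 differences that are printed for such genes, where settings are compared or no call was made, are those of the measured values and depend on the background level. Different probe sets bind with different strength, so no gene's level is set against another gene's.

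Both joint captures carried cartilage and bone markers, which do not tell condyle from fossa. All 13 cartilage genes lay above background on all 3 condyle arrays and 12 of 13 on all 3 fossa arrays. Their summed intensity was 11470 to 22618 in condyle and 9890 to 29222 in fossa, against 1262 to 1305 in whole body. Of the 13, 10 were higher than in whole body in each joint tissue. Sox9 was not higher in fossa (log2 difference -0.36, adjusted p = 0.491). All 8 measured bone genes were above background on all 3 arrays of each joint tissue. Of these, 2 were higher in condyle and 4 in fossa, where 9.34% and 3.99% of all genes were. The median condyle minus fossa difference was -0.16 for cartilage and -0.69 for bone genes. RNA controls were read on the same arrays. The 18S ribosomal control read 5.9 to 9.66 (log2) in condyle and 7.3 to 9.75 in fossa, against 14.27 to 14.42 in whole body. The 3 prime minus 5 prime difference of the Gapdh control was 5.33 to 6.86 in condyle and 3.69 to 5.31 in fossa, against 5.34 to 6.52 in whole body. The part of either control in the results below was not tested.

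The plasma protein genes were a prominent signal of the whole body and lay at or near background in the joint. Their summed intensity was 271 to 293 on the condyle arrays and 229 to 343 on the fossa arrays, against 58988 to 68064 on the whole body arrays. Afp and Alb alone summed to 39384 to 44332 in whole body, so the whole body sum speaks mostly for these 2 genes. Such a sum gives bright probe sets the most weight and is no measure of each gene's share. With 17 of the 32 genes above background on no condyle array and 15 on no fossa array, the joint sums include many background readings. In condyle 28 of 32 genes were lower than in whole body and 0 higher, where 3.84% of all genes were lower and 9.34% higher. In fossa 29 were lower and 0 higher, where 15.6% of all genes were lower and 3.99% higher, 19.6% in either direction. Taking the brightest probe set of a gene favours probe sets that are high in whole body. Over all 52 probe sets, fitted as separate rows, 37 were lower in condyle and 40 in fossa. Of the 20 probe sets not chosen, 9 were lower in condyle and 11 in fossa, and 11 were above background on all 3 whole body arrays. The median log2 difference over the 32 genes was -5.35 in condyle and -5.21 in fossa, beside -0.03 and -0.11 over all genes. With the dim genes at their bounds it was -4.88 in condyle and -4.94 in fossa. A lower value in these bulk captures can stem from fewer cells of a type or from less RNA per cell, which cannot be told apart. The 2 comparisons share the whole body arrays.

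**Figure D1:**
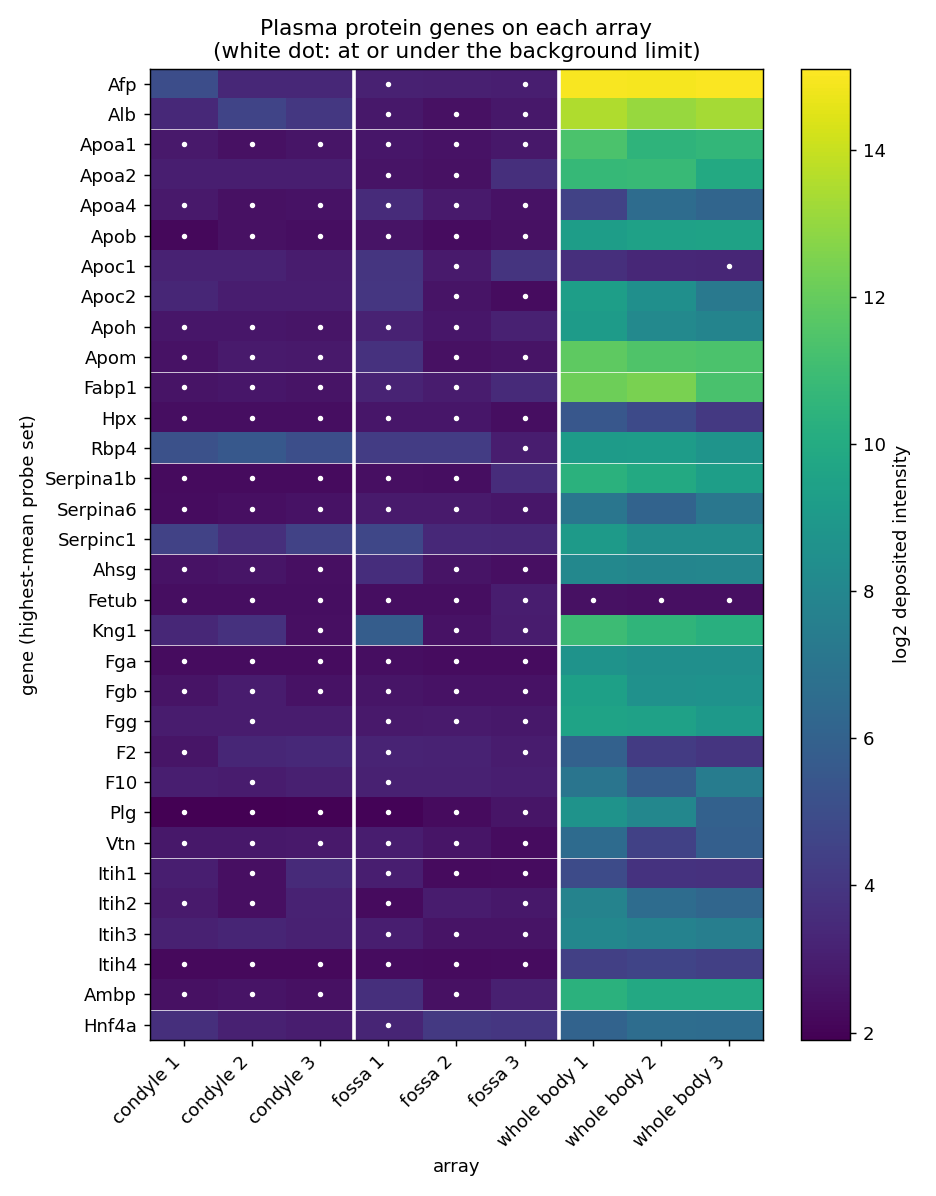
Log2 deposited intensity of the 32 measured plasma protein genes (rows, grouped by role) on the 3 condyle, 3 fossa and 3 whole body arrays (columns). A white dot marks a value at or under that array's background limit. Most joint cells are dark or dotted, while 30 genes are above background on all 3 whole body arrays. Colours are to be read along a row, since levels of different genes are not comparable.

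The 2 members of the albumin family, the main carriers of small molecules in plasma, had large differences. Afp, the fetal form that gives way to albumin after birth, read 32.9, 10.3 and 10.4 on the condyle arrays and 8.79, 8.39 and 7.94 on the fossa arrays, against 32366, 30905 and 33804 in whole body. All 3 condyle values exceeded their limits, and 1 of the fossa values did. Afp fell by 11.05 on the log2 scale in condyle (SE 0.42, adjusted p = 2.25e-05) and was at least 3527-fold lower in fossa (adjusted p = 1.44e-05). Alb, the albumin gene, read 10.7, 24.8 and 16.7 in condyle and 6.85, 5.62 and 6.76 in fossa, against 11966, 8478 and 10313 in whole body. All 3 condyle values and 0 fossa values exceeded their limits. Alb fell by 9.27 in condyle (SE 0.3, adjusted p = 1.05e-05) and was at least 1154-fold lower in fossa (adjusted p = 6.21e-06).

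Afp had 4 further probe sets, which show how near to background its joint signal was. One of them read 4.86, 6.73 and 4.45 in condyle and 4.76, 4.68 and 7.1 in fossa, all under the limit, against 12414, 7315 and 9705 in whole body. A second Afp probe set, of a type whose probes may bind related sequences, read 27.7, 8.14 and 63.6 in condyle and 6.03, 19.8 and 11.3 in fossa, against 6744, 6795 and 6665 in whole body. The condyle array with the highest value therefore differed between probe sets of the same gene. The remaining 2 Afp probe sets were at background on all 6 joint arrays.

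Afp and Alb are neighbours on chromosome 5, and their promoters are shown because both genes shared the joint against whole body difference. The stretches are the 120 bases before the annotated start, from RefSeq (GRCm38.p6), with capitals for the letters GTTAAT on either strand, an arm of the recognition sequence of the hepatocyte factor HNF1, and for TATAAA, the TATA box.
Alb, chr5:90460750-90460869, plus strand: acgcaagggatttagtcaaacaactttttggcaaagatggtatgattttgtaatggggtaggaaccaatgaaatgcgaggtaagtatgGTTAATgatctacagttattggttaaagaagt
Afp, chr5:90490594-90490713, plus strand: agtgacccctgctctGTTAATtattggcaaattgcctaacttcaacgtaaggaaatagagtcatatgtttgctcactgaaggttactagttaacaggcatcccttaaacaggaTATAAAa
The HNF1 arm lay 32 to 27 bases before the start in Alb and 105 to 100 bases before it in Afp. A match describes the letters of the window and is neither a bound site nor a cause.

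Over the 250 bases before the start, 28 of the 32 measured genes had an entry in the promoter table. GTTAAT, on either strand, stood in 10 of these 28 genes (35.7%), against 7.49% of the 27025 genes of the table. They were Afp, Alb, Apoc2, Fabp1, Serpina1b, Fga, Fgb, Itih1, Vtn and Hnf4a. The full HNF1 palindrome, which contains that arm on both strands, stood in 0 of 28 and in 0.0111% of all. TATAAA stood in 7 of 28 (25.0%), against 14.3%. CAAAGTCCA and CAAAGGTCA, 2 forms of the element bound by HNF4, stood in 0 of 28, against 0.451% and 0.485%. TTNCNNAA, a loose form of the CEBP element, stood in 57.1% of the 28, against 40.3%, and CCAAT in 32.1%, against 37.5%. Genes with several annotated starts, 4 of these 28, counted when any window matched.

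Of the 8 apolipoproteins, the protein coats of lipoprotein particles and their relatives, 7 were lower in condyle and 7 in fossa. Apoa1, the main protein of high density lipoprotein, read 6.94, 5.73 and 6.29 in condyle and 6.5, 5.93 and 6.81 in fossa, against 2679, 1413 and 1610 in whole body. No joint array exceeded its limit, and Apoa1 was at least 245-fold lower in condyle (adjusted p = 6.09e-06) and at least 208-fold lower in fossa (adjusted p = 6.21e-06). Its other 3 probe sets were also under the limit in the joint, with 1 exception, 17.9 on fossa array 1, and read at least 1145 in whole body. Apob, the backbone of very low density lipoprotein, read 4.57, 5.62 and 5.32 in condyle and 6.13, 5.03 and 5.7 in fossa, against 618, 711 and 723 in whole body. It was at least 91.7-fold lower in condyle (adjusted p = 5.52e-07) and at least 77.5-fold lower in fossa (adjusted p = 6.24e-07).

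Apom, which binds sphingosine phosphate in plasma, read 5.81, 7.32 and 6.99 in condyle and 14.0, 5.62 and 6.05 in fossa, against 3669, 2811 and 2586 in whole body. Of the joint arrays only fossa array 1 exceeded its limit. Apom was at least 401-fold lower in condyle (adjusted p = 2.45e-05) and at least 318-fold lower in fossa (adjusted p = 2.51e-05). Its second probe set was above background on all 3 condyle arrays, at 12.2, 10.6 and 8.72, and read 123, 121 and 22.5 in whole body.

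Apoa2, a partner of Apoa1 in high density lipoprotein, read 8.17, 8.13 and 8.13 in condyle and 5.94, 5.55 and 12.8 in fossa, against 1684, 1792 and 982 in whole body. The condyle values lay just over their limits. Apoa2 fell by 7.46 in condyle (SE 0.36, adjusted p = 5.97e-05) and was at least 140-fold lower in fossa (adjusted p = 4.5e-05). Apoh, which binds anionic phospholipid, was at least 44.3-fold lower in condyle (adjusted p = 0.000119) and at least 36.5-fold lower in fossa (adjusted p = 0.00012). Apoa4, made by the gut as well as the fetal liver, read 22.5, 96.3 and 72.6 in whole body and was under the limit on all 6 joint arrays. The fold was at least 7.25 lower in condyle (adjusted p = 0.011) and at least 6.13 lower in fossa (adjusted p = 0.0123). Without whole body array 1 the fitted log2 difference of Apoa4 was -3.79 in condyle and -3.41 in fossa, where all arrays gave -3.16 and -2.78. It rests on a probe set whose probes may bind related sequences, since the second Apoa4 probe set exceeded the limit on only 1 of the 9 arrays.

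Apoc1 and Apoc2, small apolipoproteins that regulate lipid enzymes, lie within 5 protein-coding genes of each other on chromosome 7 and differed in pattern. Apoc2, the activator of lipoprotein lipase, read 9.84, 7.76 and 7.89 in condyle and 15.8, 6.11 and 5.05 in fossa, against 633, 360 and 151 in whole body. It fell by 5.27 in condyle (SE 0.6, adjusted p = 0.00276) and was at least 33.2-fold lower in fossa (adjusted p = 0.00153). Apoc1 read 9.03, 9.01 and 7.52 in condyle and 15.2, 7.24 and 15.0 in fossa, against 12.6, 10.4 and 9.97 in whole body. Its signal was near the limit in every group, and it was above background on 3 condyle, 2 fossa and 2 whole body arrays. The log2 difference was -0.37 in condyle (95% interval -1.04 to 0.31, adjusted p = 0.413) and 0.11 in fossa (-0.57 to 0.79, adjusted p = 0.827).

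Among the genes of small ligand carriers, Fabp1, a cytoplasmic fatty acid binding protein of hepatocytes and gut, read 6.08, 6.42 and 6.03 in condyle and 9.44, 7.37 and 11.3 in fossa, against 4613, 5643 and 2546 in whole body. Only fossa array 3 exceeded its limit, and Fabp1 was at least 544-fold lower in condyle (adjusted p = 1.05e-05) and at least 410-fold lower in fossa (adjusted p = 1.29e-05). The second Fabp1 probe set was under the limit on all 6 joint arrays and read 182, 216 and 37.6 in whole body. Its fitted log2 difference was smaller, at -4.52 in condyle and -4.39 in fossa. Hpx, hemopexin, which scavenges free heme, read 44.8, 29.6 and 17.0 in whole body and was under the limit on all 6 joint arrays. Its fold was at least 3.79 lower in condyle (adjusted p = 0.0045) and at least 3.21 lower in fossa (adjusted p = 0.00412). With every value raised to the highest limit of the 9 arrays, Hpx no longer passed (adjusted p = 0.0564 in condyle and 0.0554 in fossa).

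Rbp4, the plasma carrier of retinol, was the gene whose condyle signal stayed over the doubled limit on all 3 arrays. It read 36.6, 46.1 and 34.1 in condyle and 18.9, 19.1 and 7.85 in fossa, against 564, 582 and 419 in whole body. All 3 condyle values and 2 of the 3 fossa values exceeded their limits, and the groups did not overlap. Rbp4 fell by 3.74 in condyle (SE 0.36, adjusted p = 0.00145) and was at least 36.2-fold lower in fossa (adjusted p = 0.00022). Its mean level in condyle was 7.48% of that in whole body.

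All 3 plasma serpins, inhibitors or carriers of the serpin fold, were lower in both joint tissues. Serpinc1, antithrombin, which blocks thrombin, was the only gene of the 32 above background on every array of the study. It read 22.7, 12.8 and 22.6 in condyle and 25.9, 10.6 and 10.5 in fossa, against 552, 331 and 333 in whole body. Serpinc1 fell by 4.39 in condyle (SE 0.43, adjusted p = 0.00159) and by 4.79 in fossa (SE 0.43, adjusted p = 0.000668). Serpina6, the carrier of corticosteroids, read 135, 69.8 and 141 in whole body and was under the limit on all 6 joint arrays. It was at least 14.8-fold lower in condyle (adjusted p = 0.000161) and at least 12.5-fold lower in fossa (adjusted p = 0.000172).

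Serpina1b, an alpha-1-antitrypsin gene with several near-identical copies in the mouse, read 4.93, 4.89 and 4.9 in condyle and 5.36, 5.24 and 11.8 in fossa, against 1297, 952 and 634 in whole body. It was at least 124-fold lower in condyle (adjusted p = 6.09e-05) and at least 92.0-fold lower in fossa (adjusted p = 6.69e-05). Both of its probe sets are of the type that may bind related sequences, so the signal may include its copies. Its promoter is shown for the HNF1 arm it shares with Alb, 26 to 21 bases before the start.
Serpina1b, chr12:103738190-103738309, minus strand: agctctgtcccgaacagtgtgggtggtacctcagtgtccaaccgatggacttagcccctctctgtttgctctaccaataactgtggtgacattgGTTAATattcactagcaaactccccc

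The fetuins and kininogen, cystatin relatives, are encoded near each other on chromosome 16, each within 5 protein-coding genes of the next. Ahsg, fetuin-A, which binds calcium phosphate in plasma, read 5.9, 6.33 and 5.34 in condyle and 12.3, 5.96 and 5.49 in fossa, against 269, 244 and 249 in whole body. Fossa array 1 alone exceeded its limit among the joint arrays. Ahsg was at least 34.1-fold lower in condyle (adjusted p = 9.39e-05) and at least 28.2-fold lower in fossa (adjusted p = 9.95e-05). Kng1, the precursor of bradykinin, read 10.3, 13.9 and 5.44 in condyle and 55.3, 5.9 and 7.59 in fossa, against 1976, 1510 and 1219 in whole body. The 55.3 on fossa array 1 was 9.38 times the lowest fossa value, and the second probe set of Kng1 read 7.34 there, under the limit. Kng1 was at least 151-fold lower in condyle (adjusted p = 0.00276) and at least 103-fold lower in fossa (adjusted p = 0.00225). For the second probe set the fitted log2 difference was -3.13 in condyle and -2.99 in fossa. The fitted log2 difference of Kng1 in fossa was -6.83 over all arrays, -7.84 without fossa array 1 and -6.23 without fossa array 2.

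Fetub, fetuin-B, an inhibitor of the egg coat protease ovastacin, was at background on all 9 arrays. It read 5.25, 5.33 and 5.33 in condyle and 5.21, 5.15 and 7.77 in fossa, against 5.55, 5.43 and 5.38 in whole body, so no fold is given. The promoter of 1 of its 2 annotated starts is shown: it held TATAAA, 31 to 26 bases before the start, and no GTTAAT. This absence did not set Fetub apart, since the HNF1 arm stood in only 10 of the 28 genes with a promoter entry. Apob and Ahsg, both lower in each joint tissue, lacked the arm too. Whether the arm relates to expression was not tested.
Fetub, chr16:22918262-22918381, plus strand: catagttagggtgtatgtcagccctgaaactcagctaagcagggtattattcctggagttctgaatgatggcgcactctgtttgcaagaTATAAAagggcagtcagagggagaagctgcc

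Of 7 genes of clotting and clot breakdown, 6 were lower in each joint tissue. The 3 fibrinogen chains, whose genes lie together on chromosome 3 and whose products assemble into 1 protein, were all lower in both joint tissues. Fga read 5.05, 5.0 and 5.01 in condyle and 5.3, 5.07 and 5.11 in fossa, against 410, 353 and 359 in whole body. Fgb read 5.94, 7.52 and 5.9 in condyle and 6.16, 5.88 and 5.9 in fossa, against 665, 385 and 401 in whole body. Fgg read 7.45, 7.42 and 7.43 in condyle and 6.97, 7.24 and 6.83 in fossa, against 754, 700 and 536 in whole body. Of these 18 joint values only 2, Fgg on condyle arrays 1 and 3, exceeded the limit. The folds were at least 50.1, 62.9 and 87.4 lower in condyle and at least 42.4, 53.2 and 74.6 lower in fossa for Fga, Fgb and Fgg, with adjusted p of 8.15e-08, 1.45e-05 and 1.04e-06 in condyle and 8.53e-08, 1.29e-05 and 9.5e-07 in fossa.

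The promoters of Fga and Fgb, the fibrinogen genes whose windows held the HNF1 arm, are shown with that arm on the opposite strand (ATTAAC) in capitals. It lay 43 to 38 bases before the start in Fga and 29 to 24 bases before it in Fgb.
Fga, chr3:83026033-83026152, plus strand: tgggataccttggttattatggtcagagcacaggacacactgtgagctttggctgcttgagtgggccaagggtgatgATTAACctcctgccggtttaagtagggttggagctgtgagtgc
Fgb, chr3:83049864-83049983, minus strand: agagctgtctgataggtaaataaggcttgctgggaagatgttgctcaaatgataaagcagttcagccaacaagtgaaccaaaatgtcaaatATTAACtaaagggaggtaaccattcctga

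Plg, plasminogen, the precursor of the enzyme that dissolves fibrin, varied most within whole body, at 410, 257 and 63.8, and was under the limit on all 6 joint arrays. It was at least 25.4-fold lower in condyle (adjusted p = 0.00257) and at least 21.5-fold lower in fossa (adjusted p = 0.00201). Vtn, vitronectin, an adhesive protein of plasma and matrix, read 91.1, 21.6 and 60.2 in whole body and was likewise under the limit on all 6 joint arrays. It was at least 6.59-fold lower in condyle (adjusted p = 0.0112) and at least 5.58-fold lower in fossa (adjusted p = 0.00681). Single whole body arrays moved both genes: the fitted log2 difference was -6.39 in condyle and -6.02 in fossa for Plg without array 3, and -3.46 and -3.56 for Vtn without array 2, where all arrays gave -5.6 and -5.23 for Plg and -2.86 and -2.96 for Vtn. F10, clotting factor X, was at least 13.4-fold lower in condyle (adjusted p = 0.00187) and at least 11.5-fold lower in fossa (adjusted p = 0.00124), with 2 of 3 arrays over the limit in each joint tissue. The other F10 probe sets differed less. In a limma fit of all probe sets, 1 had a log2 difference of -1.31 in condyle and -1.53 in fossa (adjusted p = 0.0421 and 0.0136). The last had -1.38 and -1.25 and did not pass (adjusted p = 0.252 and 0.25). F2, prothrombin, read 6.17 to 10.7 over the 3 condyle arrays and 9.37, 9.1 and 7.51 in fossa, against 64.9, 18.6 and 15.3 in whole body. Its groups did not overlap, but the log2 difference of -1.61 in condyle (95% interval -2.86 to -0.35, adjusted p = 0.0973) and of -1.62 in fossa (-2.87 to -0.37, adjusted p = 0.0754) did not pass.

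The inter-alpha-trypsin inhibitor family, whose heavy chains are linked to hyaluronan in matrix, had 4 of 5 genes lower in condyle and 5 of 5 in fossa. Ambp, which encodes the light chain bikunin and the carrier alpha-1-microglobulin, read 5.66, 6.13 and 5.65 in condyle and 12.9, 5.59 and 8.37 in fossa, against 1265, 944 and 939 in whole body. It was at least 140-fold lower in condyle (adjusted p = 2.25e-05) and at least 112-fold lower in fossa (adjusted p = 2.74e-05). Itih3 read 8.65, 9.67 and 8.58 in condyle, each over its limit, and 8.09, 6.06 and 5.95 in fossa, each under it, against 262, 217 and 189 in whole body. It fell by 4.62 in condyle (SE 0.16, adjusted p = 1.45e-05) and was at least 25.1-fold lower in fossa (adjusted p = 1.12e-05).

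Of the other heavy chains, Itih2 was at least 14.9-fold lower in condyle (adjusted p = 0.00193) and at least 13.5-fold lower in fossa (adjusted p = 0.00102). Itih4, whose whole body values of 21.4, 24.8 and 21.0 lay close together, was at least 3.0-fold lower in condyle (adjusted p = 1.09e-05) and at least 2.54-fold lower in fossa (adjusted p = 1.29e-05). Itih1 read 7.92, 5.35 and 11.1 in condyle and 8.14, 4.95 and 5.08 in fossa, against 29.9, 14.1 and 13.7 in whole body. Its log2 difference of -1.21 ± 0.4 (SE) in condyle did not pass (adjusted p = 0.0991), and it was at least 2.04-fold lower in fossa (adjusted p = 0.0318). That fossa call was lost under 8 alternatives, with adjusted p of 0.0536 to 0.294, among them the removal of fossa array 2 or 3, of whole body array 1 or 2, or of condyle array 1.

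Hnf4a, a nuclear receptor that drives many of these genes in hepatocytes, was above background on 3 condyle and 2 fossa arrays. It read 12.6, 8.67 and 7.9 in condyle and 9.77, 16.8 and 15.9 in fossa, against 67.8, 98.0 and 96.2 in whole body. Hnf4a fell by 3.18 in condyle (SE 0.28, adjusted p = 0.00104) and was at least 5.93-fold lower in fossa (adjusted p = 0.00129). These values come from a probe set whose probes are shared by several transcripts, while its other 3 probe sets were at background on all 9 arrays. The gene is also active in gut, kidney and pancreas. As the mean over its 4 probe sets, the Hnf4a difference was -0.89 in condyle and -0.76 in fossa.

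**Figure D2:**
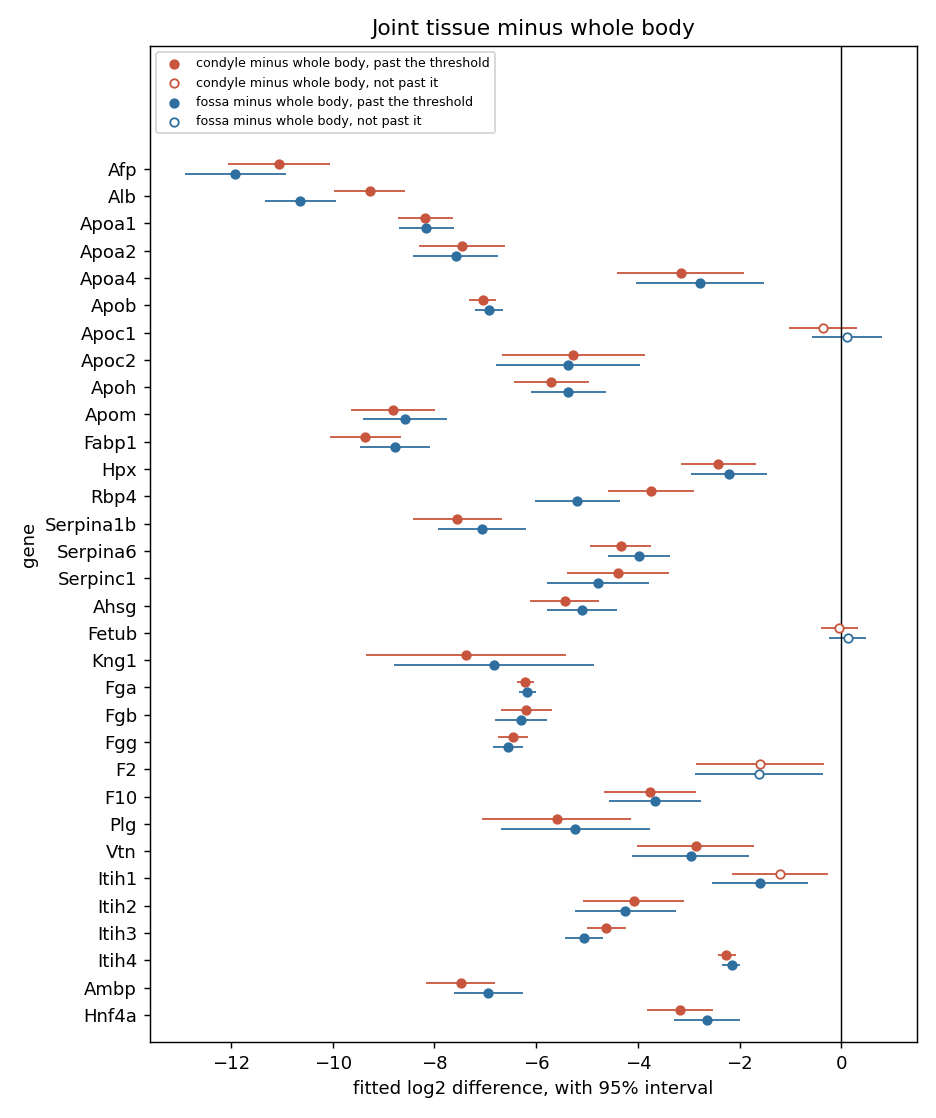
Fitted log2 difference from whole body (x axis) of each plasma protein gene (y axis), for condyle and for fossa, with its 95% interval over 3 arrays a group. Filled points passed the adjusted p threshold and open points did not: Apoc1, Fetub and F2 in both tissues and Itih1 in condyle. For genes at background in the joint the plotted difference is that of the measured values and depends on the background level.

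Most of the joint signal was close to the limit. In condyle 9 of 32 genes were above background on all 3 arrays (Afp, Alb, Apoa2, Apoc1, Apoc2, Serpinc1, Itih3, Rbp4 and Hnf4a), where 59.3% of all genes were. In fossa 1 was (Serpinc1), where 45.7% of all genes were. In whole body 30 were, where 51.7% of all genes were, and the exceptions were Apoc1 and Fetub. On single arrays 11 to 14 of the 32 genes exceeded the limit in condyle and 7 to 9 in fossa, against 30 to 31 in whole body. On no array of the group were 17 genes above background in condyle (31.0% of all genes) and 15 in fossa (34.9%).

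The height of the limit set these counts. With the limit doubled, 1 gene, Rbp4, stayed above it on all 3 condyle arrays and 0 on all 3 fossa arrays, against 27 in whole body. With the second highest control as the limit, 9 were above it in condyle and 7 in fossa, namely Afp, Fabp1, Serpinc1, F2, F10, Rbp4 and Hnf4a, against 31 in whole body. Without fossa array 1, whose limit was the highest, 3 genes were above background on both remaining fossa arrays. Without fossa array 2 the count was 3 and without fossa array 3 it was 2.

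**Figure D3:**
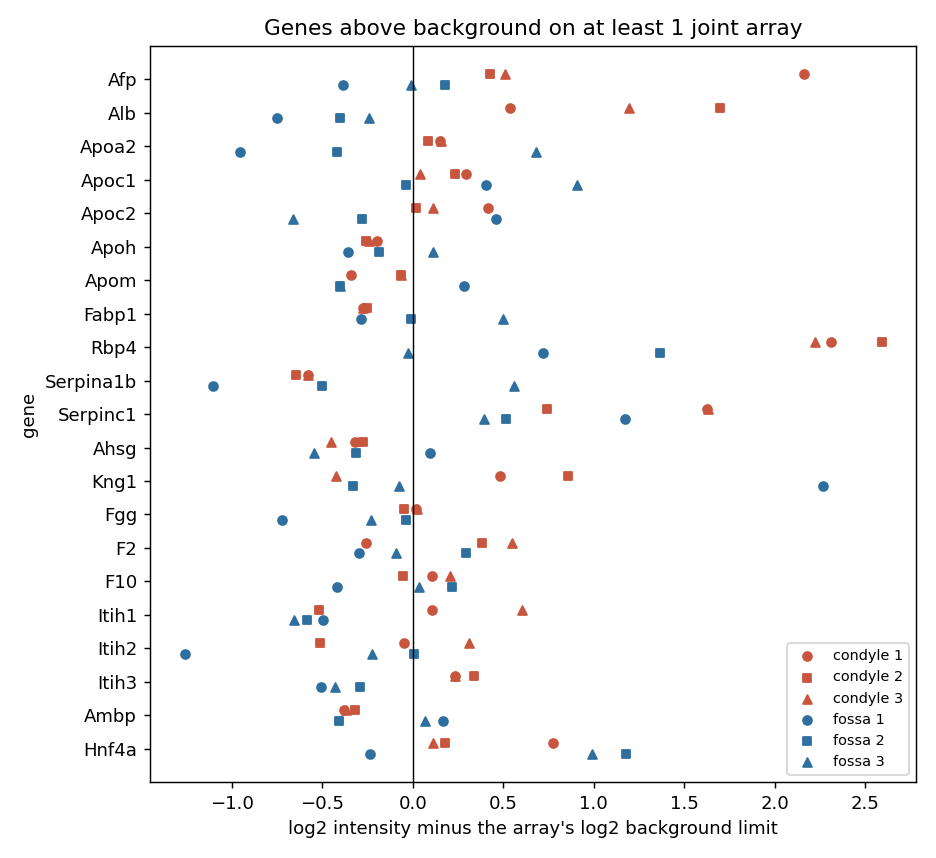
Log2 intensity minus the array's log2 background limit (x axis) on the 3 condyle and 3 fossa arrays for the plasma protein genes that exceeded the limit on at least 1 joint array (y axis). The vertical line at 0 is the limit, and only Rbp4 has all 3 condyle points more than 1 log2 unit to its right. Kng1 on fossa array 1 and Afp on condyle array 1 stand apart from the other arrays of their tissue.

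For the 9 genes above background on all 3 condyle arrays, the condyle level is given as a share of the same gene's whole body level. The condyle mean was 0.047% of the whole body mean for Afp and 0.162% for Alb. It was 0.567% for Apoa2, 2.6% for Apoc2, 4.06% for Itih3 and 4.76% for Serpinc1. It was 7.48% for Rbp4, 11.1% for Hnf4a and 77.6% for Apoc1, which was near the limit in both groups. For genes just over the limit this share is partly background, and it cannot be read as a share of transcripts.

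Condyle and fossa were also compared directly. Of the 32 genes 2 were higher in condyle than in fossa, Alb and Rbp4, and 0 lower, where 16.8% of all genes were higher and 2.13% lower. The median log2 difference was -0.1 over the 32 genes and 0.21 over all genes. Alb was above background in condyle only and at least 1.86-fold higher there (adjusted p = 0.0217). Rbp4 was at least 2.71-fold higher in condyle, with 2 of 3 fossa arrays over the limit (adjusted p = 0.0312). Neither call held after quantile normalization of the arrays, where the log2 difference was 1.14 for Alb (adjusted p = 0.0511) and 0.8 for Rbp4 (adjusted p = 0.354) and the median over all genes was -0.01. Neither call held without condyle array 3 either (adjusted p = 0.0615 and 0.0668). Alb was also lost without fossa array 2 (0.0578) or 3 (0.0553), and Rbp4 without condyle array 1 (0.0778) or 2 (0.0909). With every value raised to a common floor, the Alb difference was 0.55 (adjusted p = 0.331).

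For the other 30 genes no difference between condyle and fossa passed, which does not show that they were equal. Leaving out 1 array brought calls for Itih3 (without fossa array 1), Apoc1 (without fossa array 2) and Serpina6 (without whole body array 2). The condyle values lay wholly above the fossa values for 5 of the 32 genes, where this held for 33.9% of all genes, and wholly below them for 7, where it held for 15.8%. All 7 were under the limit on every condyle array, so their order rests on background readings. Among the 5, Afp had a log2 difference of 0.86 (95% interval -0.13 to 1.86, adjusted p = 0.204). Itih3 differed less (0.43, 0.05 to 0.81, adjusted p = 0.107). For Kng1 the interval ran from -2.53 to 1.42 and for Serpinc1 from -0.61 to 1.4.

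Within whole body many of the plasma protein genes shared a direction between arrays, but not all did, and the spread differed from gene to gene. Of the 30 genes above background on all 3 arrays, 20 were highest on array 1 and 17 lowest on array 3, while 30.4% of all genes above background there were highest on array 1 and 29.4% lowest on array 3. Their median log2 difference of array 1 minus array 3 was 0.55, beside -0.1 over those genes. Plg differed 6.43-fold between its highest and lowest array, Apoa4 4.28-fold, F2 4.23-fold, Vtn 4.23-fold and Apoc2 4.19-fold. Afp differed 1.09-fold, Ahsg 1.11-fold, Fga 1.16-fold and Apob 1.17-fold. Apoa4 was lowest on array 1. The 2 gut genes above background on all 3 whole body arrays differed in order. Fabp2 read 107, 239 and 296, lowest on array 1, and Muc13 read 32.6, 33.6 and 23.1, lowest on array 3. The part of tissue make-up in this spread was not tested.

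**Figure D4:**
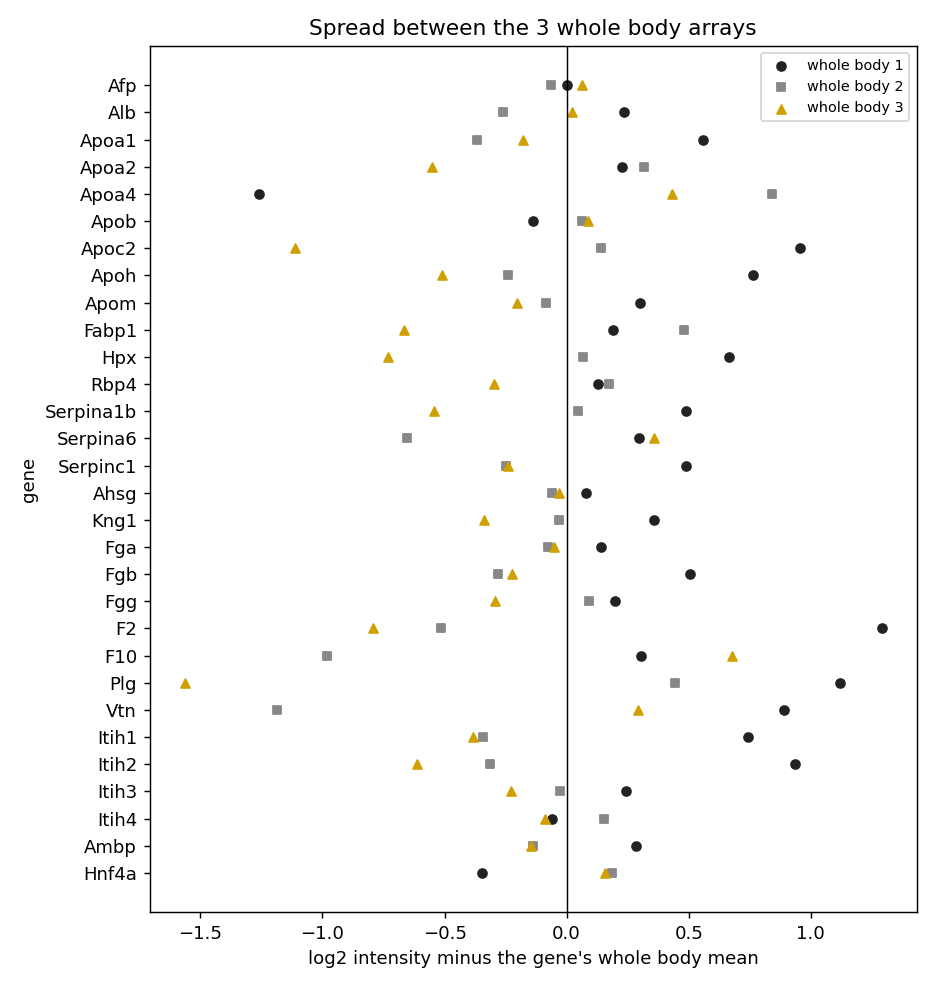
Log2 intensity on each of the 3 whole body arrays minus the mean of the 3 (x axis) for the 30 plasma protein genes above background on all of them (y axis). Array 1 is the highest for 20 genes, and Plg, F2, Vtn, Apoa4 and Apoc2 spread most, while the 3 points of Afp lie within a 1.09-fold range.

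Of the 33 genes, 17 lie in 7 groups on the chromosomes, each within 5 protein-coding genes of the next in the RefSeq table of GRCm38.p6. These are Alb and Afp, the 3 fibrinogen genes, Apoa1 and Apoa4, Apoc1 and Apoc2, Itih1, Itih3 and Itih4, Serpina1b and Serpina6, and Ahsg, Fetub and Kng1. Neighbours did not always share a pattern. Fetub was at background in whole body, between Ahsg and Kng1, which were at least 34.1-fold and 151-fold lower in condyle. Apoc1 differed by -0.37 beside Apoc2, which fell by 5.27.

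Other liver genes showed a mixed pattern. Of 35 measured other plasma protein genes 10 were lower and 1 higher in condyle, where 3.84% and 9.34% of all genes were. In fossa 14 were lower and 0 higher, where 15.6% and 3.99% of all genes were. The medians were -0.82 in condyle and -1.05 in fossa. Of the 35, 8 were at background on all whole body arrays, where a fall cannot be read. The protease inhibitor gene Pzp was at least 23.4-fold lower in condyle and 19.8-fold in fossa (adjusted p = 5.97e-05 and 5.07e-05). Serpina10, which inhibits factor X, was at least 19.5-fold and 16.5-fold lower (adjusted p = 3.37e-05 and 3.72e-05). Apoc4 was at least 13.7-fold lower in condyle (adjusted p = 0.000399), and Proc, protein C, at least 10.7-fold lower in fossa (adjusted p = 0.00102). The higher gene was Serpinf1, named after its values were seen, at a log2 difference of 2.14 ± 0.46 (SE, adjusted p = 0.0253).

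Of 24 hepatocyte enzymes 6 were lower in condyle and 7 in fossa, where 3.84% and 15.6% of all genes were. None was higher, and 10 were at background on all whole body arrays. Bhmt, an enzyme of methionine metabolism, read 7.46, 6.44 and 9.03 in condyle and 8.15, 7.43 and 9.4 in fossa, against 1665, 1000 and 1197 in whole body. The urea cycle genes Cps1 and Otc were at least 69.7-fold and 52.0-fold lower in condyle and at least 58.9-fold and 40.2-fold lower in fossa (adjusted p = 2.61e-06, 5.97e-05, 2.06e-06 and 6.05e-05). Of 20 hepatic transcription factors 2 were lower and 1 higher in condyle, where 3.84% and 9.34% of all genes were. In fossa 3 were lower and 0 higher, near the 15.6% of all genes lower there. Of the 20 factors, 12 were at background on all whole body arrays, where a fall cannot be read. Creb3l3, a factor of liver and gut, was at least 2.9-fold lower in condyle (adjusted p = 0.00798), and Foxa3 fell by 0.56 (SE 0.13, adjusted p = 0.0342). In fossa Creb3l3 was at least 2.81-fold lower (adjusted p = 0.00313) and Foxa3 at least 1.96-fold lower (adjusted p = 0.00192). Nr1h4 passed too (adjusted p = 0.0498) but was at background in both groups there. Tbx3, which also acts in limb and other mesenchyme, was at least 4.42-fold higher in condyle (adjusted p = 0.00331) and at background in whole body.

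Markers of other tissues were counted in the same fit, where 3.84% of all genes were lower in condyle and 15.6% in fossa, and their part in the results was not tested. The summed intensity of 13 erythroid genes was 9.73% to 65.6% of the whole body mean in condyle and 3.61% to 36.8% in fossa. Of the erythroid genes 9 were lower in condyle and 10 in fossa, while Hbb-y, an embryonic globin, differed by -1.27 ± 1.14 (SE) in condyle (adjusted p = 0.469). Of 12 gut genes 3 were lower in condyle and 2 in fossa: Fabp2 read 9.71, 9.67 and 10.9 in condyle and 5.38, 7.94 and 13.2 in fossa, and 10 of the 12 were at background on all condyle arrays. Of 10 kidney tubule genes 1 was lower in condyle and 3 in fossa, and 4 were at background on all whole body arrays. Of 11 macrophage genes 4 were lower in condyle and 2 in fossa.

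Ttr, which the fetal liver and the choroid plexus of the brain both transcribe, varied widely within each joint tissue. It read 898, 3483 and 38554 in condyle and 47.7, 18.9 and 34230 in fossa, against 30056, 26497 and 28028 in whole body. The 2 highest joint values, on condyle array 3 and fossa array 3, exceeded every whole body value. On those arrays Alb read 16.7 and 6.76 and Afp 10.4 and 7.94. Kcne2, a potassium channel subunit of the choroid plexus, read 89.4 on condyle array 3 and 95.3 on fossa array 3, against 60.0 on whole body array 3, and at most 14.6 on the other 6 arrays. Of 8 choroid plexus genes 1 was higher in condyle and 0 in fossa, with 0 lower in either. The higher gene, Clic6, read 359, 350 and 531 in condyle and 6.21, 11.3 and 54.4 in fossa, against 41.4, 26.0 and 53.3 in whole body. Of the 8, 4 were at background on all condyle arrays, 5 on all fossa arrays and 5 on all whole body arrays. The part of choroid plexus tissue in the Ttr values was not tested.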

How the data were processed

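RNA of 9 laser-captured samples was hybridised to 1 array each, and the 3 samples of a group are labelled as biological replicates. As deposited, each probe set has 1 linear intensity on each array. The authors' background correction, normalization and summarisation of these intensities are not given in the sources used here. Per the submitters' processing notes limma was among the tools, without its version or role. The number of arrays limits the precision.

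Of 45101 probe sets, 34945 carried 1 gene symbol, 932 several and 9160 none, and 64 were array controls. Probe sets with 1 symbol gave 18193 genes. Log2 of the deposited intensities was fitted with limma 3.58.1 in R 4.3.3, all 9 arrays in one fit (6 residual and 1.12 prior degrees of freedom), and p-values were Benjamini-Hochberg adjusted over all genes. Python 3.11.15 was used for counts and figures. The fit was tested on simulated data. Members and gene lists were chosen with earlier results of these data known. All measured members are named. Genes of other lists were named by the size of their change among those past the threshold, or by their level for the lists of other tissues. The alternatives were quantile normalization, median centring, a common floor, other limits and probe set rules, fits of 2 groups, a replicate block and leaving out each array.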

Additional observations from a re-analysis of the deposited data

Results flagged for a closer look

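For 2 of 32 plasma protein genes (Alb and Rbp4) condyle and fossa differed, and so did their differences from whole body, in a comparison where 16.8% of all genes were higher in condyle. Alb was at least 1.86-fold higher in condyle (adjusted p = 0.0217), with all 3 condyle arrays above all 3 fossa arrays. The fitted log2 difference was 1.36, but it is measured against fossa values at background and was 0.55 with a common floor (adjusted p = 0.331). For Rbp4 the fitted log2 difference was 1.45 (adjusted p = 0.0312), at least 2.71-fold, again with no overlap between the tissues. The Alb call was lost under 7 alternatives and the Rbp4 call under 5, and both were lost after quantile normalization, without condyle array 3 and in the fit of the 2 groups alone.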

How the results depend on the processing

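Of 1120 alternative values of single genes, 1093 kept their direction and side of the threshold. A call was lost by 22 (Hpx, Itih1, Alb and Rbp4), and 5 changed sign (Fetub and Apoc1, neither called against whole body). Many of these values could not change direction, so the count overstates how far direction was put to the test. Separate probe set rows, fits of 2 groups, the replicate block and dropping genes at background leave the fitted difference as it was. So does leaving out an array of the group not compared. In these only the p-value can move. Under other alternatives sizes moved more: the common floor changed 38 values by over 1.5 times and the mean over a gene's probe sets 20. By that mean, in condyle, Afp was -6.64 in place of -11.05, Apob -3.56 in place of -7.05, Apoh -3.08 in place of -5.7 and Hnf4a -0.89 in place of -3.18. Fabp1 was -6.94 in place of -9.36 and F10 -2.15 in place of -3.76. The second probe sets of Apob and Vtn were at background on all 9 arrays. The count lower than in whole body was 27 to 28 in condyle and 27 to 29 in fossa under every alternative run. The condyle minus fossa count of 2 became 0 after quantile normalization, 1 with a common floor (Alb lost), 1 with only the 2 groups compared (Serpina6, with Alb and Rbp4 both lost) and 1 with the replicate block, where Alb had an adjusted p of 0.0627. Leaving out 1 array gave 0 to 3. The cause was not tested. Whether replicate numbers mark shared embryos is not given, and they were not treated as pairs. Deviations of same-numbered condyle and fossa arrays correlated at -0.332, -0.435 and 0.146. Across numbers the highest were 0.444 (condyle 2 with fossa 1) and 0.436 (condyle 1 with fossa 2). Whether any condyle and fossa captures share an embryo was not tested. The block by replicate number left 28 and 29 genes lower than in whole body. Above background on all 3 arrays were 1 gene in condyle and 0 in fossa with the limit doubled, and 7 in fossa with the second highest control. Leaving out 1 array gave 2 to 3 in fossa. The Fetub difference in condyle was 0.02 after quantile normalization and 0.08 after centring. In fossa, leaving out 1 array moved Apoc1 between -0.07 and 0.47 and Fetub between -0.07 and 0.22. Signal near background sets the limit of these data: joint values there have no order, and folds against them are lower bounds.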
